A study of Mus musculus with 2 samples.

Results

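The 64 genes described here are the gene segments of the T cell receptor beta, gamma and delta loci of the mouse. They were taken from the 54532 genes of the deposited table by their biotype (V, D, J or C segment of a T cell receptor) and by a name that starts with Trb, Trg, Tcrg or Trd, a rule that uses no measured value. The beta locus gave 39 members, the gamma locus 15 and the delta locus 10. The reads came from F4/80 and CD11b sorted aortic cells of male ApoE-/- mice on a C57BL/6J background, labelled as 6 weeks old. Mice of the PDR group (phlegm-dampness retention, a syndrome of traditional Chinese medicine) had a high-fat diet for 4 weeks. Mice of the SKYD group (spleen and kidney yang deficiency) had propylthiouracil, a drug that lowers thyroid hormone, by gavage at 10 mg/kg per day for 4 weeks and then a high-fat diet for 2 weeks. All mice lack ApoE, so neither group shows a mouse with an intact gene. Each group is a pool of 5 mice that gave 1 library, so no difference below has a replicate check and no p-value is given. Between these libraries the syndrome cannot be told apart from the drug, the time on the diet or the age.

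A T cell builds its receptor by cutting and joining DNA. In the beta and delta loci a V, a D and a J segment are joined, and in the gamma locus a V and a J segment, and the joined exon is then spliced to a C segment that encodes the part of the chain next to the membrane. The beta chain pairs with the alpha chain, or with the pre-T alpha chain in immature thymocytes, and the gamma chain pairs with the delta chain on a separate lineage, the gamma delta T cells. The labels give the sample as macrophages. The sort genes and other macrophage markers were present in both libraries. Adgre1, which encodes F4/80, had 6639 reads in PDR and 7551 in SKYD, and Itgam, which encodes CD11b, had 1043 and 1803. T cell genes were present in both libraries as well, and B cell genes too, with Cd79a at 19916 and 6493 reads.

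Several sequences show which segments the reads can and cannot tell apart. They are the transcripts of GENCODE M21 (GRCm38), whose start and end match those of the deposited table for all 64 members, and each is written 5′ to 3′ on the strand of the gene. The beta C segments, Trbc1 and Trbc2, encode almost the same protein. Over their 518 coding bases they differ at 23 positions, an identity of 95.6%, and the first of these is at base 260. Many lie near the end of the coding part, whose last 60 bases are given with the bases that differ in capitals.
Trbc1: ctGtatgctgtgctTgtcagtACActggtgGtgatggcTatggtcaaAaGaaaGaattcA
Trbc2: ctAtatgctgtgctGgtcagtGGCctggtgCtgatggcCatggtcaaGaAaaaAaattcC

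The D segments are the shortest members and are given whole, in capitals. Trdd2 is the only member without a read in either library.
Trbd1: GGGACAGGGGGC
Trbd2: GGGACTGGGGGGGC
Trdd1: ATGGCATATCA
Trdd2: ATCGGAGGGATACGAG

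The gamma J segments belong to separate V-J-C clusters and bear on how far the clusters can be distinguished. Trgj1 and Trgj2 differ at 4 of 60 bases, Trgj1 and Trgj3 at 6 of 60, and Trgj1 and Trgj4 at 19 of the 60 aligned bases. Capitals mark the codons TTN, GNN, any codon and GGN in a row, a search for the Phe-Gly-X-Gly turn that closes the antigen loop, read on the coding strand only. They were found in 18 of the 19 J segments here (all but Trbj1-7) and in 45 of 51 alpha J segments. The gamma J segments carry Ala in place of the first Gly of that turn, which the search letters allow.
Trgj1: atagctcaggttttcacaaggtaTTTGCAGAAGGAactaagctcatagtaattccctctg
Trgj2: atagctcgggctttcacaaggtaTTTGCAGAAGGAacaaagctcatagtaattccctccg
Trgj3: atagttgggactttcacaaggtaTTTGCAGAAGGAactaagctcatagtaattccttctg
Trgj4: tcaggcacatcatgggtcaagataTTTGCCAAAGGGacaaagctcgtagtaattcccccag

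Among the V segments, a few set the pattern of the results and are given by their last 30 bases, with the codon of the conserved Cys in capitals. This codon starts the antigen loop and was found in the last 30 bases of all 34 V segments. Trdv4 and Trbv30 were the members with more reads in PDR for the size of the library. Trdv2-2 led the delta V reads in SKYD, Trbv13-2 led the beta V reads and Trgv2 led the gamma V reads. Tcrg-V1 and Tcrg-V3 end in the same 30 bases, and Trgv2 differs from them only near its end.
Trdv4: gctggtacgtactacTGTgggtcagatatc
Trdv2-2: gcgacgtatttcTGTgctctcatggagcgc
Trbv30: cagcagtatctatttcTGTagttctagaga
Trbv13-2: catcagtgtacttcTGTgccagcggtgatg
Trgv2: agccacctactacTGTgcagtctggatgag
Tcrg-V1: agccacctactacTGTgcagtctggataaa
Tcrg-V3: agccacctactacTGTgcagtctggataaa

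The authors deposited FPKM, which are reads per 1000000 reads of the library (RPM) for each kilobase of gene. The reads of each gene were recovered from FPKM and gene length, and came out whole, within 0.01 of a read, for 100% of the genes above 0, of which PDR had 17738 and SKYD 20499. They sum to 23086889 in PDR and 25427863 in SKYD, and 1 read is 0.0426 and 0.0400 RPM at the library sizes behind FPKM. A fold is the ratio of RPM, SKYD over PDR, with an exact 95% interval of how the reads split between the libraries. These intervals cover counting error only. A count of 0 allows up to 3 reads, and a fold against 0 is given as at least the fold over 3 reads, a bound that leaves out the counting error of the SKYD reads.

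All members together had 8584 reads in PDR and 80041 in SKYD. They took 0.0372% of the reads on genes in PDR and 0.315% in SKYD, and were 8.76-fold higher in SKYD by RPM (95% CI 8.57 to 8.96). Of the 63 members with a read, 61 had a higher RPM in SKYD and 2 in PDR, and 18 of the 61 had 0 reads in PDR and could only be higher in SKYD. Over all genes with a read in either library, 56.4% were higher in SKYD. In such sorted bulk libraries, fewer cells of a type and less RNA per cell cannot be told apart.

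Each locus was higher in SKYD, by a different size. The beta locus, on chromosome 6 from 40891229 to 41558452, had 8284 reads in PDR and 73727 in SKYD, 8.36-fold higher (95% CI 8.18 to 8.56). The gamma locus, on chromosome 13 from 19178024 to 19352756, had 241 and 5471 reads, 21.3-fold higher (95% CI 18.7 to 24.4), or 14.005-fold without Tcrg-C2. The delta locus, which lies inside the alpha locus on chromosome 14 from 53881612 to 54149294, had 59 and 843 reads, 13.4-fold higher (95% CI 10.3 to 17.8), or 3.14-fold without Trdc (95% CI 2.25 to 4.45). The gamma and delta intervals lie above that of beta, but the place of delta rests on few members. Without the member with the most reads in each locus, delta at 3.14 lies below beta at 9.13 (95% CI 8.84 to 9.43). Without members that share a window of 50 bases with another gene, beta was 5.42-fold higher (95% CI 5.11 to 5.75), gamma 10.7-fold (95% CI 8.15 to 14.3) and delta 1.19-fold (95% CI 0.776 to 1.84). With summed FPKM, beta at 7.41 and delta at 7.52 were close. The alpha segments, which are 160 other genes, had 1766 and 6001 reads and were 3.19-fold higher (95% CI 3.03 to 3.37). V segments whose names carry both Trav and dv serve alpha and delta chains alike and are counted with alpha here.

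In each locus but delta in PDR, most reads lay on C segments, which every finished chain carries. Beta C segments had 6588 reads in PDR and 63985 in SKYD, a fold of 9.13 (95% CI 8.90 to 9.36). Beta V segments had 1623 and 9207, a fold of 5.33 (95% CI 5.06 to 5.62), which is below that of the C segments. The ratio of C to V reads in the beta locus was 4.06 in PDR and 6.95 in SKYD, so it was 1.71 times higher in SKYD (95% CI 1.61 to 1.82). In the alpha locus the same ratio was 3.88 in PDR and 2.89 in SKYD. The C to V ratio therefore moved in opposite directions in the beta and the alpha locus.

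The gamma and delta classes had fewer reads. Gamma C segments had 225 reads in PDR and 4971 in SKYD, a fold of 20.8 (95% CI 18.2 to 23.8), and gamma V segments had 6 and 407, a fold of 63.7 (95% CI 29.0 to 175). Without members that share a window of 50 bases with another gene, the gamma C fold was 11.1 (95% CI 8.22 to 15.4) and the gamma V fold 11.3 (95% CI 1.67 to 482), the latter on 1 and 12 reads. The delta C segment had 12 and 686 reads and the delta V segments 47 and 147, so the delta V fold of 2.94 (95% CI 2.10 to 4.17) was below the 53.7 of the delta C segment (95% CI 30.6 to 104). Without the window-sharing members, which include Trdc, Trdv2-1, Trdv2-2 and Trdv5, the delta V fold was 0.963 (95% CI 0.611 to 1.52) with an interval that includes 1, as does that of the delta locus. Trdc was left out whole there, although only 6.68% of its windows are shared. Delta was the only locus with more V than C reads in PDR, at a C to V ratio of 0.255, and in SKYD that ratio was 4.67. The plot of the classes shows all of these levels on 1 scale.

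**Figure D1:**
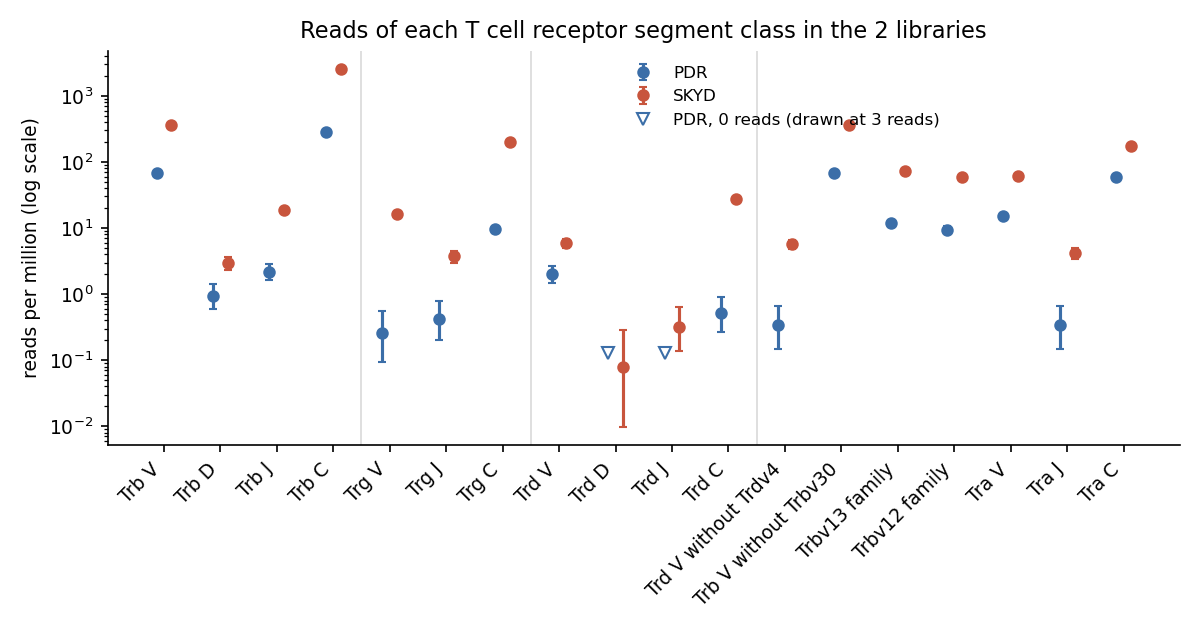
RPM of each class of segment (log axis) in the PDR and SKYD libraries, with exact 95% Poisson intervals that cover counting error only. SKYD lies above PDR in every class with reads in both libraries, and the delta D and J classes have 0 reads in PDR, drawn as open triangles at the limit of 3 reads.

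The beta C segments carried most of the reads. Trbc1 (chromosome 6 from 41538218 to 41539881) had 2340 reads in PDR and 29472 in SKYD. Trbc2 (chromosome 6 from 41546730 to 41548352) had 4248 and 34513. Trbc1 was 11.8-fold higher in SKYD (95% CI 11.3 to 12.4) and Trbc2 7.64-fold (95% CI 7.40 to 7.88), so their intervals do not overlap. By FPKM, which is a level per length, Trbc2 was the higher gene in both libraries, with 261 and 1995, against 133 and 1574 for Trbc1. Trbc1 took 35.5% of the beta C reads in PDR (95% CI 34.4 to 36.7) and 46.1% in SKYD (95% CI 45.7 to 46.4), an odds ratio of 1.55 (95% CI 1.47 to 1.64). Windows of 50 bases found in the transcript of the other gene make up 41.1% of those of Trbc1 and 44.0% of those of Trbc2. How reads in these windows were assigned is not given in the sources used here, and its part in the shares was not tested.

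Each beta C segment lies behind its own D and J segments, so a chain made with a J segment of the first cluster is spliced to Trbc1 and one of the second cluster to Trbc2. Trbd1 had 16 reads in PDR and 27 in SKYD, a fold of 1.59 whose interval includes 1 (95% CI 0.824 to 3.15). Trbd2 had 6 and 46 reads, a fold of 7.20 (95% CI 3.07 to 20.6). Trbd1 thus made up 72.7% of the beta D reads in PDR (95% CI 49.8 to 89.3) and 37.0% in SKYD (95% CI 26.0 to 49.1), intervals that just fail to overlap. The Trbj1 segments had 28 and 194 reads and the Trbj2 segments 23 and 268. The share of Trbj1 was 54.9% in PDR (95% CI 40.3 to 68.9) and 42.0% in SKYD (95% CI 37.4 to 46.6), and these intervals overlap. So the D and J reads of the first cluster took a lower share in SKYD while its C segment took a higher one, with the J difference within counting error.

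All 13 beta J segments had a higher RPM in SKYD. The 3 with the most reads were Trbj2-1, with 13 reads in PDR and 122 in SKYD, Trbj1-1, with 12 and 84, and Trbj2-7, with 7 and 86. Their folds were 8.82 (95% CI 4.97 to 17.0), 6.58 (95% CI 3.57 to 13.2) and 11.5 (95% CI 5.37 to 29.6). Trbj1-4, Trbj2-2 and Trbj2-4 had 0 reads in PDR and 13, 12 and 9 in SKYD, at least 4.07-, 3.76- and 2.82-fold higher, and Trbj2-5 had 0 and 4, for which the exact lower limit of the fold is 0.620. The remaining 6 segments had 1 to 7 reads in PDR and 11 to 35 in SKYD. None of the 13 differed between the libraries in its share of the J reads beyond overlapping intervals, at 51 J reads in PDR and 462 in SKYD. Trbj2-1 led in both, with 25.5% and 26.4%. J and D segments are shorter than the V and C segments, a read from a joined chain can reach beyond them, and their FPKM is not a level that can be set beside that of V or C segments.

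The 22 beta V segments encode the part of the chain that contacts antigen with the first loops of the receptor. The 5 with the most reads were higher in SKYD by similar folds. Trbv13-2, of the family known as V beta 8, had 174 reads in PDR and 972 in SKYD, a fold of 5.25 (95% CI 4.46 to 6.20). Trbv12-2, of the family known as V beta 5, had 173 and 897, a fold of 4.87 (95% CI 4.14 to 5.77). Trbv16 had 165 and 882, a fold of 5.02 (95% CI 4.25 to 5.97). These segments and Trbv1, with 146 and 784 reads, have overlapping fold intervals. Trbv19, with 148 and 656, had a fold of 4.17 (95% CI 3.48 to 5.01).

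Of the 20 beta V segments with reads in both libraries, 19 were higher in SKYD, from 2.67-fold for Trbv20 (88 and 250 reads, 95% CI 2.09 to 3.44) to 11.9-fold for Trbv17 (35 and 443 reads, 95% CI 8.42 to 17.3). Trbv5 and Trbv21 had 0 reads in PDR and 20 and 7 in SKYD, at least 6.27- and 2.19-fold higher. Trbv4, with 6 and 41 reads, and Trbv5 overlap the non-coding RNA 5830405F06Rik on the same strand, which had 0 and 83 reads. The interval of 10 beta V segments lay wholly below that of the summed beta C segments, and of 0 wholly above it. Trbv30 was the exception to the direction. It had 34 reads in PDR and 28 in SKYD, a fold of 0.774 whose interval includes 1 (95% CI 0.452 to 1.31).

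**Figure D2:**
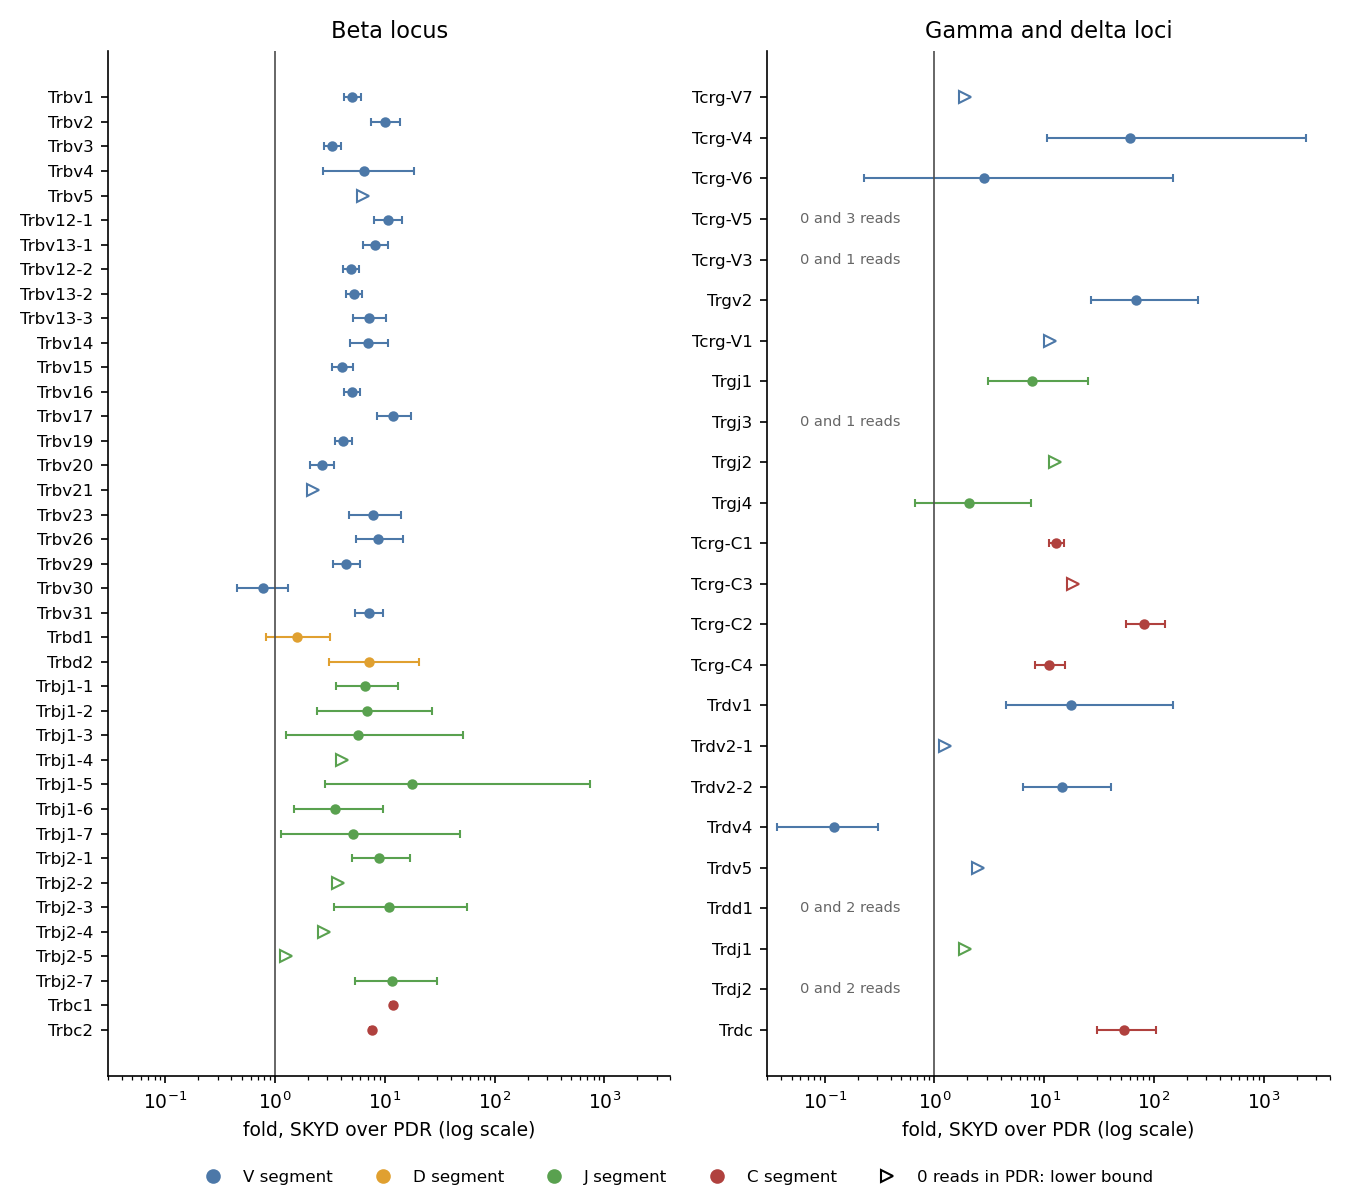
Fold of RPM, SKYD over PDR (log axis), for the 63 members with a read, ordered by class and position within each locus, with exact 95% counting intervals. Open triangles are lower bounds for members with 0 reads in PDR, members with 0 reads in PDR and at most 3 in SKYD are given as reads, and only Trdv4 and Trbv30 lie below 1.

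The usage of beta V segments, as the share of all beta V reads in a library, was compared next. Over the 22 segments the shares in the libraries had a Spearman correlation of 0.905, given as a description since the segments share the same libraries. The top 5 segments of each library took 51.0% of the beta V reads in PDR and 45.5% in SKYD. Moving 14.6% of the reads between segments would turn one set of shares into the other. Trbv13-2 led in both, with 10.7% in PDR (95% CI 9.26 to 12.3) and 10.6% in SKYD (95% CI 9.94 to 11.2). The same segment had the highest FPKM of the class in both, 21.8 and 114. In PDR the intervals of neighbouring segments in the order of FPKM all overlap, and in SKYD Trbv13-2 stood above Trbv12-2, at 93.2, beyond counting error.

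The shares of 8 beta V segments differed between the libraries with intervals that do not overlap, 4 in each direction. Higher shares in SKYD were those of Trbv2 (3.02% in PDR and 5.67% in SKYD), Trbv12-1 (3.08% and 6.13%), Trbv13-1 (3.94% and 6.03%) and Trbv17 (2.16% and 4.81%). Higher shares in PDR were those of Trbv3 (10.4% and 6.43%), Trbv19 (9.12% and 7.13%), Trbv20 (5.42% and 2.72%) and Trbv30 (2.09% and 0.304%). Members of 1 family did not move together, since Trbv12-2 took 10.7% and 9.74% and Trbv13-2 did not differ, while Trbv12-1 and Trbv13-1 took a higher share in SKYD. Trbv31, which lies on the far side of the C segments in the opposite orientation, took 3.39% and 4.55% with overlapping intervals. The odds ratio farthest from 1 was that of Trbv30, at 0.143 (95% CI 0.0830 to 0.243). Whether such differences exceed those between mice cannot be measured with 1 pool of mice in each group.

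**Figure D3:**
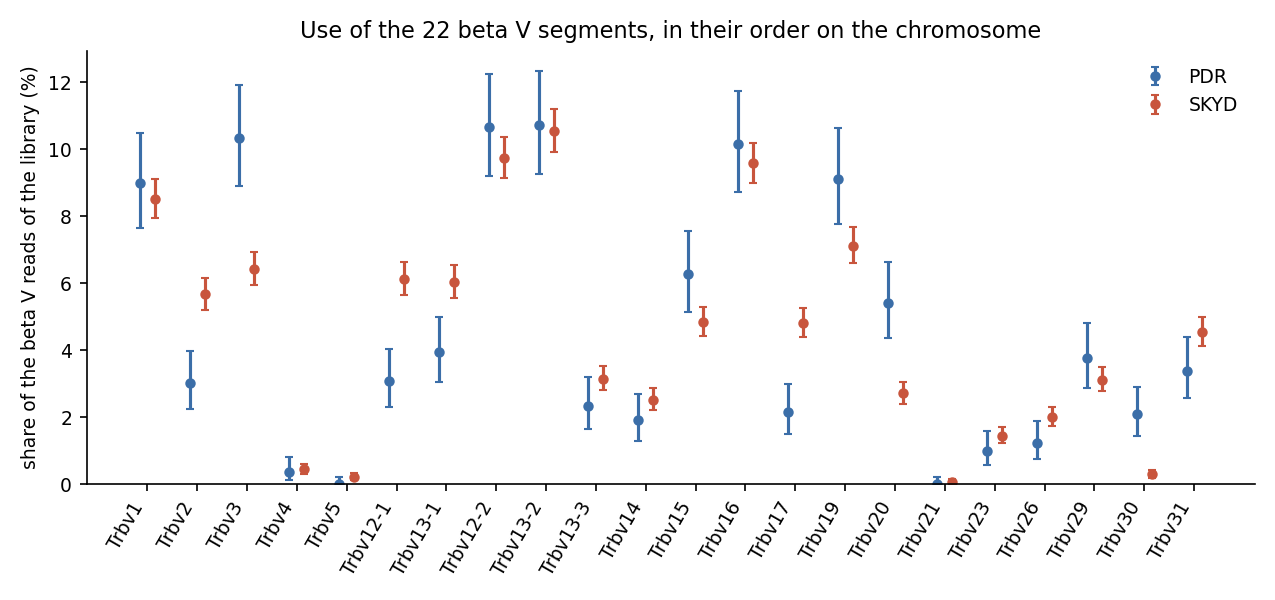
Share of all beta V reads of a library taken by each of the 22 beta V segments (percent), in their order on the chromosome, with exact 95% binomial intervals. Trbv13-2 has the highest share in the PDR and in the SKYD library, with non-overlapping intervals for 8 segments, of which Trbv30 has 2.09% in PDR and 0.304% in SKYD.

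The gamma locus holds 4 clusters, each with its own C segment, and they differed in fold. Tcrg-C1 (chromosome 13 from 19214103 to 19217024), whose cluster holds the V4, V5, V6 and V7 segments, had 153 reads in PDR and 2102 in SKYD, a fold of 12.9 (95% CI 11.0 to 15.3). Tcrg-C4, which lies behind V1, had 46 and 544 reads, a fold of 11.1 (95% CI 8.22 to 15.4). Tcrg-C2, which lies behind Trgv2 on the opposite strand, had 26 and 2267 reads, a fold of 81.9 (95% CI 55.8 to 126). Tcrg-C3 had 0 reads in PDR and 58 in SKYD, at least 18.2-fold higher. The Tcrg-C2 interval lies above those of Tcrg-C1 and Tcrg-C4, which overlap each other.

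The makeup of the gamma locus therefore differed between the libraries. Tcrg-C1 took 68.0% of the gamma C reads in PDR (95% CI 61.5 to 74.0) and 42.3% in SKYD (95% CI 40.9 to 43.7). Tcrg-C2 took 11.6% in PDR (95% CI 7.69 to 16.5) and 45.6% in SKYD (95% CI 44.2 to 47.0), an odds ratio of 6.42 (95% CI 4.23 to 10.1). Tcrg-C4 took 20.4% in PDR (95% CI 15.4 to 26.3) and 10.9% in SKYD (95% CI 10.1 to 11.8). Per length, Tcrg-C1 was the highest of these genes in PDR at an FPKM of 7.05, and Tcrg-C2 was the highest in SKYD at 99.2, just above the 91.0 of Tcrg-C1. The transcripts of Tcrg-C1 and Tcrg-C2 are identical at 95.9% of aligned bases, Tcrg-C1 and Tcrg-C3 at 97.2%, and Tcrg-C1 and Tcrg-C4 at 67.3%. Of the windows of 50 bases, 34.2% of those of Tcrg-C1 and 25.4% of those of Tcrg-C2 occur in another gamma C gene, and 0 of Tcrg-C4.

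The V and J segments of the same clusters were counted apart from the C segments. Windows shared with another gamma V gene make up 7.01% of those of Trgv2 and 24.6% of those of Tcrg-V1, and 0 of the windows of the gamma J segments are shared. Trgv2, the V segment in front of Tcrg-C2, had 4 reads in PDR and 293 in SKYD, a fold of 68.8 (95% CI 26.6 to 254). Trgj2, the J segment of that cluster, had 0 and 40 reads, at least 12.5-fold higher. In the Tcrg-C1 cluster, Tcrg-V4 had 1 and 65 reads, a ratio of 61.1 (95% CI 10.6 to 2449), and Trgj1 had 5 and 41, a fold of 7.71 (95% CI 3.05 to 25.0). In the Tcrg-C4 cluster, Tcrg-V1 had 0 and 36 reads, at least 11.3-fold higher, and Trgj4 had 5 and 11, a ratio of 2.07 (95% CI 0.662 to 7.59). Trgv2 led the gamma V reads in SKYD with 72.0% of 407 (95% CI 67.4 to 76.3), and with 6 gamma V reads in PDR no share can be set against it.

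The remaining gamma segments were close to the limit of detection. Tcrg-V7 had 0 reads in PDR and 6 in SKYD. Tcrg-V6 had 1 and 3, Tcrg-V5 had 0 and 3, and Tcrg-V3 and its J segment Trgj3 each had 0 and 1. Tcrg-V5 and Tcrg-V6 are segments used by gamma delta T cells of skin and of mucosal tissues that arise before birth, and both were near 0 in each library. Tcrg-V4, V5, V6 and V7 lie within the span of the antisense gene Gm31887, which had 0 and 2 reads, and the strand setting of the counting is not given in the sources used here.

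In the delta locus, Trdc and 4 of the 5 V segments were higher in SKYD. Trdc had 12 reads in PDR and 686 in SKYD, and its level per length was low in both, at an FPKM of 0.132 and 7.10. Trdv2-2 had 6 and 93 reads, a fold of 14.6 (95% CI 6.44 to 40.7), and Trdv1 had 2 and 37, a ratio of 17.4 (95% CI 4.48 to 149). Trdv5, which overlaps the end of Trdc on the opposite strand, had 0 and 8 reads, at least 2.51-fold higher, and 40.6% of its windows of 50 bases occur in Trdc. Trdv2-1 had 0 and 4 reads, for which the exact lower limit of the fold is 0.620, below 1. Trdv2-1 and Trdv2-2 share 65.6% and 52.6% of their windows with each other or with the antisense gene Gm43647, which had 0 and 9 reads. Trdj1 had 0 and 6 reads, Trdj2 and Trdd1 each had 0 and 2, and Trdd2 had 0 in both.

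Trdv4 went the other way and was the only member with an interval wholly below 1. It had 39 reads in PDR and 5 in SKYD, so it was 8.30-fold higher in PDR (95% CI 3.27 to 27.0). Trdv4 is the segment that is known to pair with the V5 and V6 gamma chains. It made up 83.0% of the 47 delta V reads in PDR (95% CI 69.2 to 92.4) and 3.40% of the 147 in SKYD (95% CI 1.11 to 7.76). Without it, the delta V segments had 8 and 142 reads, a fold of 16.7 (95% CI 8.24 to 39.4). In PDR, Trdv4 had more reads than Trdc, although Trdc is the longer gene, with 3865 bases against 444. Trdv4 shares no window of 50 bases with another gene, and lies within the span of the antisense gene Gm30275, which had 0 and 1 reads.

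**Figure D4:**
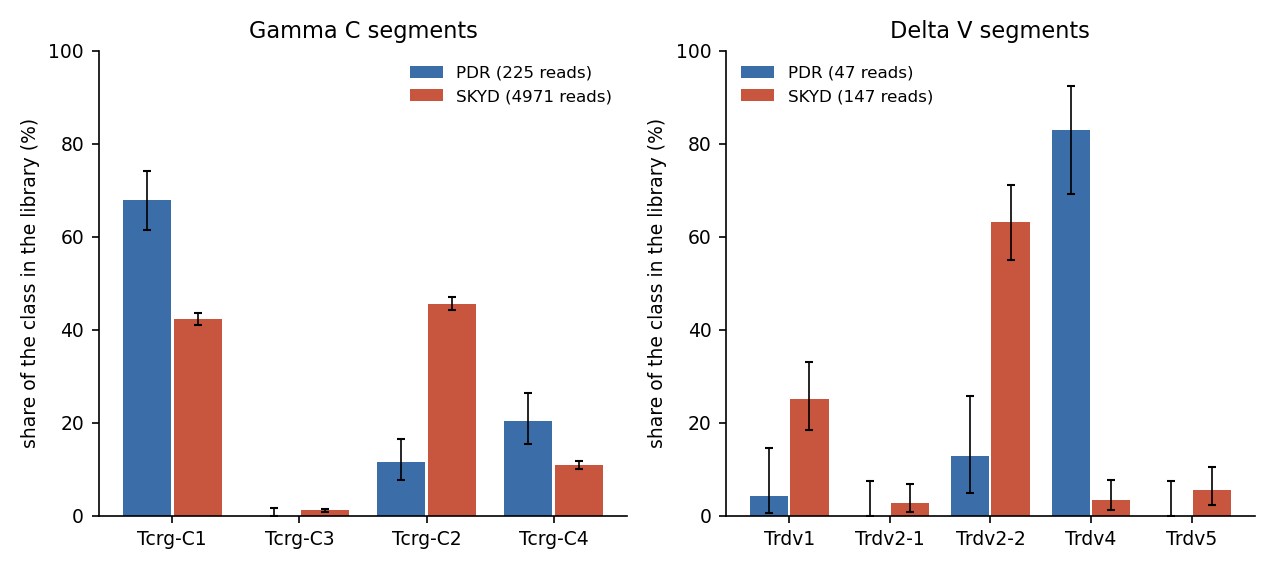
Share of the gamma C reads taken by each C segment and of the delta V reads taken by each V segment (percent) in the PDR and SKYD libraries, with exact 95% binomial intervals. Tcrg-C2 has 11.6% in PDR and 45.6% in SKYD, and Trdv4 has 83.0% in PDR and 3.40% in SKYD.

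Gamma and delta chains are used together, so their C segments were set beside those of the alpha and beta chains within each library. Gamma C reads were 3.30% of gamma and beta C reads in PDR (95% CI 2.89 to 3.75) and 7.21% in SKYD (95% CI 7.02 to 7.40). Trdc reads were 0.851% of the reads of Trdc and Trac, the alpha C segment, in PDR (95% CI 0.441 to 1.48) and 13.5% in SKYD (95% CI 12.6 to 14.5). Beta C reads were 4.71 times the reads of Trac in PDR and 14.6 times in SKYD. Beta, gamma and delta C segments thus all took a higher part in SKYD relative to Trac, which itself was 2.94-fold higher (1398 and 4381 reads, 95% CI 2.77 to 3.13).

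On the log2(FPKM + 1) scale, 54 of the 64 members had a mean FPKM of at least 1, and 50 of them were more than 2-fold higher in SKYD, against 6.91% of the 10399 genes that passed this filter. Trdv4 was more than 2-fold higher in PDR on this scale, with a difference of -1.71, SKYD minus PDR, against 7.38% of all genes. Of the 54 members, 17 had an FPKM below 1 in PDR, 10 of them with 0 reads, and passed only through SKYD, so they had to be higher there. Trdv4 in turn passed only through PDR, with an FPKM of 3.74 there and 0.451 in SKYD, so its direction on this scale was fixed by the filter. The 10 members below the filter had 0 to 1 reads in PDR and 0 to 8 in SKYD. By reads, 50 members had at least 10 reads over both libraries, and 43 of them had an interval wholly above 2-fold, against 11.6% of 16703 genes. Of these 50 members, 6 had 0 reads in PDR and could only be higher in SKYD. Trbj1-2, Trbj1-3, Trbj1-5, Trbj1-7, Trbj2-3, Trdv1, Tcrg-V4 and Trgv2 had 1 to 4 reads in PDR. They too passed this filter through SKYD, so their direction was fixed by it, and all of them but Trbj1-3 and Trbj1-7 are among the 43. The interval of Trdv4 lay wholly beyond 2-fold toward PDR, against 8.55% of genes. The median difference over all 64 members was 2.40, and over all genes tested it was 0.0035.

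Lists of other genes of the T cell lineage were set beside the members. Of 14 genes that act with the receptor or in its assembly, 12 were more than 2-fold higher in SKYD and 0 in PDR, with a median difference of 2.32. Over all genes tested, 6.91% were more than 2-fold higher in SKYD and 7.38% in PDR. Rag1, Rag2 and Ptcra at 0 reads in PDR, and Dntt, Bcl11b and Gata3 with an FPKM below 1 there, passed the filter only through SKYD, so their direction was fixed by the filter. Cd3d and Cd3g encode chains of the CD3 complex that carries the receptor to the membrane. Cd3d had 1803 reads in PDR and 10010 in SKYD, a fold of 5.22 (95% CI 4.96 to 5.49), and Cd3g had 2526 and 15290, a fold of 5.69 (95% CI 5.45 to 5.94). These folds are close to that of the beta V segments and below those of the beta, gamma and delta C segments. Zap70, the kinase that binds the CD3 chains, differed least, with 232 and 424 reads, a fold of 1.72 (95% CI 1.46 to 2.02).

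The genes of receptor assembly had high folds. Dntt, which encodes the enzyme that adds bases at the joints, had 39 reads in PDR and 10953 in SKYD, a fold of 264 (95% CI 193 to 371). Rag1 and Rag2, which encode the enzyme that cuts at the segments, had 0 reads in PDR and 637 and 2262 in SKYD, at least 199.5- and 709-fold higher. Ptcra, the pre-T alpha chain that pairs with a new beta chain, had 0 and 475 reads, at least 149-fold higher. In the PDR library the beta C segments were thus present at 6588 reads with 0 reads of Rag1, Rag2 and Ptcra. Of 15 genes of immature thymocytes, 4 of which are in the list above, 14 passed the filter, of which 12 exceeded 2-fold toward SKYD and 0 toward PDR. All of these 12 but Cd8b1 had an FPKM below 1 in PDR and passed only through SKYD, so this count shows no direction of its own. Dgkeos had 0 and 2352 reads, at least 737-fold higher, and Cd1d1 had 1200 and 685, the only gene of this list that was lower in SKYD.

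**Figure D5:**
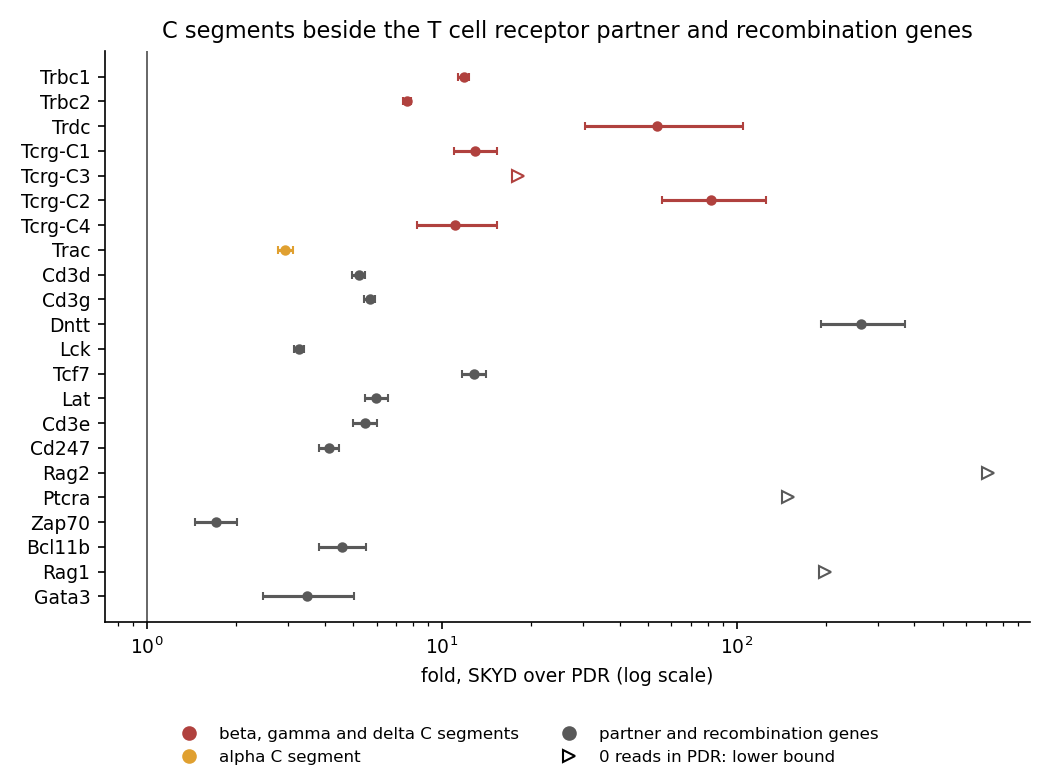
Fold of RPM, SKYD over PDR (log axis), for the 7 beta, gamma and delta C segments, the alpha C segment and 14 genes that act with the receptor or in its assembly, with exact 95% counting intervals. All lie above 1, Zap70 lowest at 1.72, and Rag1, Rag2, Ptcra and Tcrg-C3 are lower bounds because PDR had 0 reads.

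Genes of T cells were set beside the members too. Of 18 such genes, 9 of which are in the list of receptor partners and 1, Cd8b1, in that of immature thymocytes, 16 were more than 2-fold higher in SKYD and 0 in PDR. The shares over all genes tested were 6.91% and 7.38%. Bcl11b, 1 of the 16, had an FPKM of 0.756 in PDR and passed only through SKYD, so its direction was fixed by the filter. Cd8b1, a chain of the CD8 co-receptor, had 1383 and 19828 reads, a fold of 13.5 (95% CI 12.8 to 14.2), and Cd8a had 667 and 9354, a fold of 13.2 (95% CI 12.2 to 14.3). A list of 15 genes linked to gamma delta T cells went both ways. Of the 6 that passed the filter, 3 were more than 2-fold higher in SKYD and 2 in PDR, on few genes. Of these 3, 1 passed the filter only through SKYD, so its direction was fixed by the filter. Cd27 had 659 and 2515 reads, Tmem176a 2481 and 7861, and Id3 1863 and 2868. Blk and Ccr6, which B cells also express, had 2047 and 427 reads and 1224 and 208 reads, and were higher in PDR. The other genes of this list, below the filter, also went both ways. Zbtb16 had 6 and 139 reads, Maf 129 and 175, 5830411N06Rik 0 and 39, and Cd163l1 and Il1r1 each 0 and 16, while Il23r had 19 and 3. Sox13, a factor of gamma delta T cells, had 0 and 2 reads, and the cytokine genes Il17a and Il17f had 0 in both.

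Markers of other cells differed between the libraries as well, and their part in the values of the members was not tested. Over all genes tested, 7.38% exceeded 2-fold toward PDR and 6.91% toward SKYD. Of 10 NK cell and innate lymphoid genes, 9 passed the filter, of which 6 exceeded 2-fold toward PDR and 0 toward SKYD. Prf1, 1 of these 6, had an FPKM of 3.53 in PDR and 0.975 in SKYD and passed only through PDR, so its direction was fixed by the filter. The summed level of the 10 genes was 580 RPM in PDR and 208 in SKYD, with 0 of the 10 at 0 reads. Of 10 B cell genes, 8 passed the filter, of which 7 exceeded 2-fold toward PDR, and their summed level was 10701 and 6223 RPM, of which Ighm alone gave 6957 and 5502, again with none at 0. Of 12 macrophage genes, 4 were more than 2-fold higher in SKYD, and their sum was 33148 and 63868 RPM, of which Lyz2 alone gave 29238 and 54398. Csf1r and Fcgr1 of this list were lower in SKYD, with folds of 0.779 (95% CI 0.751 to 0.807) and 0.680 (95% CI 0.644 to 0.718). Among the genes of these lists, Gzmb of cytotoxic cells had 3419 reads in PDR and 306 in SKYD, Ms4a1 of B cells 28542 and 3486, and Cd14 of monocytes and macrophages 5492 and 36838. The list of 9 thymic epithelium genes summed to 19.0 and 55.6 RPM, and its defining genes Foxn1 and Psmb11 had 0 reads in both libraries. Others of this list were higher in SKYD, with Krt8 at 196 and 872 reads, Ccl25 at 145 and 341, Tbata at 0 and 41, Krt5 at 0 and 29 and Cldn4 at 0 and 19, while Ly75 had 65 and 41. Prss16 was present in both, at 40 and 47 reads, with a fold interval that includes 1 (95% CI 0.709 to 1.73). The T cell list summed to 636 and 3768 RPM.

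Genes that lie beside or within the receptor loci were compared, since they share the chromosome region but not the joining of segments. Stard3nl, 4.92 kb from the gamma locus, had 2393 reads in PDR and 2314 in SKYD, a fold of 0.909 (95% CI 0.858 to 0.963). Dad1, 86.2 kb from the delta locus, had 4448 and 8439, a fold of 1.78 (95% CI 1.72 to 1.85), and Abhd4 had 957 and 854. The trypsinogen genes lie inside the beta locus and are known from the pancreas. Try5 had 24 and 122 reads and Prss2 had 17 and 79, while Try4 had 35 and 6, so these neighbours went both ways. Ephb6, 47.0 kb from the beta locus, had 17 and 294 reads, a fold of 16.3 (95% CI 9.98 to 28.3).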

How the data were processed

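RNA of 1 pooled library of 5 mice per group was sequenced. Per the submitters' processing notes and methods, reads were aligned by TopHat2 2.0.9 with Bowtie2 2.0.6 and counted by HTSeq 0.6.1, and the authors deposited FPKM with gene length, position and biotype. The submitters' processing notes name mm9, but 98.3% of the 54409 genes shared with GENCODE M21 have its GRCm38 position. The article names another sequencer than the labels. Neither the overlap mode and strand setting of the counting nor the use of reads with several matches is given in the sources used here.

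Reads were recovered as FPKM times length over the value of 1 read. With 1 library per group, no test was made. Folds carry exact (Clopper-Pearson) intervals, shares exact binomial intervals and levels exact Poisson intervals, all at 95%. For counts over all genes, log2(FPKM + 1) was used where the mean FPKM reached 1, with a 2-fold threshold. A window of 50 bases counts as shared where another gene's transcript also holds it. Where window-sharing members were left out, 1 shared window was enough to leave out the whole member. The members and the 9 lists were chosen with earlier results of these data known. Named by rule were all C and D segments, in each locus the 5 V and 3 J segments with the most reads, members higher in PDR with at least 5 reads, and in each list the 3 genes with the highest mean FPKM and the 2 with the largest difference each way. Some list genes of this rule are left to the counts, and any other gene was named after its values were seen. Alternatives are given in the closing section. The steps were tested on simulated data. Software was Biopython 1.88, matplotlib 3.10.9, scipy 1.17.1, pandas 2.3.3, numpy 2.4.6 and Python 3.11.15. Recombination signal sequences and proteins were not analysed here. The values of 1 gene of the gamma delta T cell list are not reported here.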

Additional observations from a re-analysis of the deposited data

Results flagged for a closer look

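Pseudogene segments of these loci were not among the members, and 2 of the 15 had more reads than the 3 that a count of 0 allows. Trbj2-6, a beta J pseudogene, had 4 reads in PDR and 42 in SKYD, a fold of 9.87 (95% CI 3.58 to 37.9). Trbv24, a beta V pseudogene, had 0 reads in PDR and 40 in SKYD, at least 12.5-fold higher. No other samples were at hand to compare these counts with.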

How the results depend on the processing

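No paired analysis was possible because each group had 1 library, and for the same reason no library could be left out. All 3 locus folds stayed above 1 under each alternative, but their size depended on which segments were counted. With summed FPKM the folds were 7.41 for beta, 17.6 for gamma and 7.52 for delta. Without the member with the most reads in each locus (Trbc2, Tcrg-C2 and Trdc) they were 9.13, 14.005 and 3.14, and without members that share a window with another gene they were 5.42, 10.7 and 1.19, the last with an interval that includes 1 (95% CI 0.776 to 1.84), since Trdc and Trdv2-2 were left out. The delta V fold was 0.963 there, on the other side of 1 (95% CI 0.611 to 1.52). With library sizes from the sum of recovered reads the beta fold was 8.08. The number of members more than 2-fold higher in PDR was 0 with a mean FPKM of at least 5 or a 4-fold threshold. The thymic epithelium genes more than 2-fold higher in SKYD numbered 2 with a pseudocount of 0.1. Of 135 alternative values, 114 kept their direction and lay within the 95% interval of the reported value or, for counts, within 1.5 times of it. Gamma V and delta V shares rest on 6 and 47 reads in PDR, so differences between them are limited by depth.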
